A study of Mus musculus with 2 samples.

Results

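Cyclin-dependent kinase (CDK) inhibitors and nuclear genes used as marks of senescence were followed in epithelial cells of the mouse submandibular gland, one of the major salivary glands. The set held 10 genes of the 37003 with a probe on the array, namely the inhibitors Cdkn1a, Cdkn1b, Cdkn2a, Cdkn2b, Cdkn2c and Cdkn2d, the nuclear genes Lmnb1, Hmgb1 and Hmgb2, and Glb1. Genes were listed by name and found through the gene names in the scanner files, and every probe of each was used, 27 in all. The young sample came from female C57BL/6 mice aged 9 weeks and the aged sample from female C57BL/6 mice aged 24 months, with no transgene or treatment named for either, and the design gives N as 1 for each age. The study's methods name the substrain as C57BL/6N. Cells were taken by positive selection with magnetic beads against EpCAM, an adhesion molecule of epithelia. Cy3-labelled RNA was hybridized to Agilent arrays of 60-mer probes, 1 for each age and both on the same slide. The study's methods name a commercial breeder for young mice and the institute's own facility for aged mice, so that age and origin cannot be told apart. A single array stands for each age, so the differences below were neither replicated nor tested.

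Progression from G1 into S phase depends on CDK4 and CDK6, which work with D-type cyclins, and on CDK2, which works with E-type cyclins. INK4 proteins (p16, p15, p18 and p19, from Cdkn2a, Cdkn2b, Cdkn2c and Cdkn2d) bind CDK4 and CDK6, whereas the CIP/KIP proteins p21 (Cdkn1a) and p27 (Cdkn1b) also bind CDK2 complexes, and both classes thereby keep the retinoblastoma protein active and E2F factors silent. In senescent cells, p16 and p21 are commonly raised, lamin B1 is lost from the nuclear lamina, HMGB1 leaves the nucleus, HMGB2 declines, and lysosomal beta-galactosidase (Glb1) accounts for the enzyme activity stained as senescence-associated.

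The probes are the measurement here, so the stretches that the main results rest on are given first, 5′ to 3′ in the sense of the transcript, with positions on NCBI37 (mm9) as the files give them. Both Cdkn2a probes matched both of its RefSeq transcripts, NM_009877 and NM_001040654, which encode p19ARF and p16 in different reading frames, so neither probe tells these products apart. The Cdkn2a probes lie on chromosome 4, reverse strand, at chr4:88920545-88920604 (A_51_P144813) and chr4:88920405-88920464 (A_55_P2008437). Cdkn2b, the neighbouring gene, has probes at chr4:88952437-88952496 (A_52_P498241) and chr4:88952276-88952335 (A_55_P1988183), which do not overlap. The first 30 bases of each are shown.
Cdkn2a, A_51_P144813: cacttctagcgatgctagcgtgtctagcat
Cdkn2a, A_55_P2008437: ggcatgagaaactgagcgaaggcggccgcg
Cdkn2b, A_52_P498241: catgtgtggggattcacctgcaaaatggca
Cdkn2b, A_55_P1988183: ccagtgatgaattgtagtggtagcaggtta
The 2 Cdkn2c probes, at chr4:109333779-109333838 (A_51_P513719) and chr4:109333757-109333818 (A_51_P513720), share 40 bases and are close to a repeat of the same measurement. The first 30 bases of A_51_P513720 lie within that shared stretch.
Cdkn2c, A_51_P513720: ccgttagttggttggctgtccgtttcacta
For the HMGB pair, whole probes are shown, since these genes are paralogs. The longest run of bases that any Hmgb1 probe shares with any Hmgb2 probe was 9. Probes were compared with probes only, so whether a probe also matches the other gene's transcript was not tested. Capitals mark the 11 bases that the end of one Hmgb1 probe, at chr5:149861395-149861454, shares with the start of the other, at chr5:149861346-149861405. The Hmgb2 probe lies at chr8:59991910-59991966.
Hmgb1, A_55_P2082986: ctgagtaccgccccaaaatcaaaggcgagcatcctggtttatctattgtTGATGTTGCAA
Hmgb1, A_55_P2131483: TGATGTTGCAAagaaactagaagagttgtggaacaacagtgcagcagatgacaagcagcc
Hmgb2, A_55_P2892369: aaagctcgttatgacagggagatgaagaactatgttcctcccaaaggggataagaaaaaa

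Of the 10 genes, 9 had signals well above background at both ages and 1, Cdkn2a, at neither. On the aged array, Lmnb1 was lower by 2-fold, Cdkn2c was 1.76-fold and Hmgb2 1.35-fold lower, and Cdkn2b was 1.64-fold higher, whereas Cdkn1a, Cdkn1b, Cdkn2d, Hmgb1 and Glb1 differed by less than 2 of their errors. This holds for arrays scaled to their 75th percentile, and which genes passed 2 errors depended on the scaling. Values are log2 signals relative to the 75th percentile of the array, differences are aged minus young, and the error (SD) is that of the scanner software's error model, which covers the spot and not the spread between mice. The 75th percentile was 256 (young) and 198 (aged), which is why a gene may have a lower raw signal on the aged array and a difference near 0. With 2-fold as the threshold, the one the study's methods name, 0 of the 9 genes were higher and 1 was lower. The same threshold was passed by 284 (1.52%) of all 18745 genes measured on both arrays in the higher direction and by 571 (3.05%) in the lower. The median difference was -0.33 over the 9 genes, with 6 below 0 and 3 above, and 0.09 over all genes. Of all spots for transcripts, 55.4% (young) and 50.8% (aged) were well above background.

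**Figure D1:**
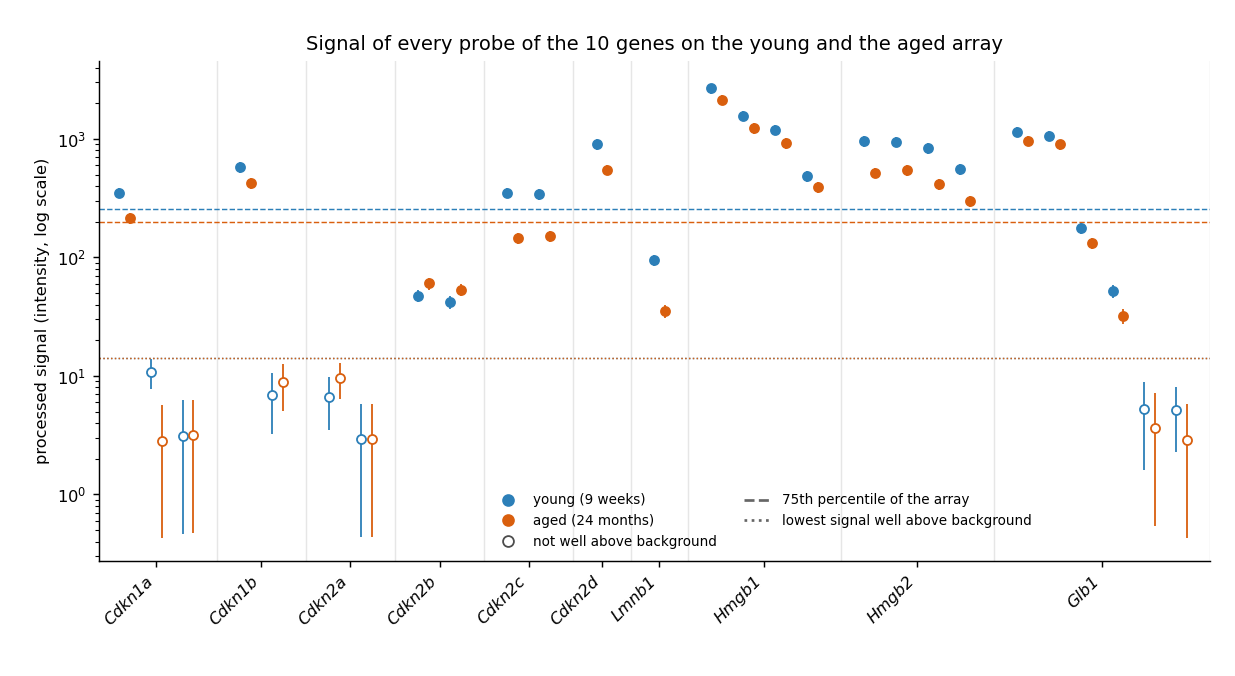
Processed signal (intensity, log scale) of each of the 27 probes on the young (9 weeks) and the aged (24 months) array, with the error of the scanner software as bars, which are shortened at the lower end where they would reach 0. Filled points are probes well above background on both arrays and open points probes that were so on neither. Both Cdkn2a probes lie below the lowest signal well above background (dotted lines), and both Cdkn2b probes are higher on the aged array while the aged signals of all other filled probes are lower.

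The INK4 genes went different ways. Cdkn2a, whose products p16 and p19ARF act on CDK4 and CDK6 and on the p53 regulator MDM2, was not measurable on these arrays. Its probe A_55_P2008437 had a signal of 6.68 ± 3.16 (young) and 9.66 ± 3.26 (aged), and for A_51_P144813 the software wrote substitute values of 2.90 and 2.92. The lowest signals well above background were 14.1 and 14.3, so a level under these would not have been seen and no fold is given. Its neighbour Cdkn2b, which encodes p15, had signals of 47.7 ± 5.67 (young) and 60.3 ± 6.78 (aged) by A_52_P498241, or -2.43 and -1.72 relative to the 75th percentile. The difference was 0.71 ± 0.24 (1.64-fold higher). The other Cdkn2b probe had signals of 41.7 ± 5.25 and 53.2 ± 6.21 and a difference of 0.72 ± 0.25, so the 2 separate stretches of the transcript gave the same value within their error. Cdkn2b was the only gene of the set past 2 of its errors on the higher side, and 874 of all genes (4.66%) had a difference as high or higher. The difference was 0.44 with the normexp background correction and 0.45 with levels set by the spike-in controls, and was 0.89 after median centring.

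Cdkn2c, which encodes p18, had the largest difference among the inhibitors and it ran the other way. Its probe A_51_P513720 had signals of 342 ± 34.4 (young) and 150 ± 15.5 (aged), which is 0.42 and -0.40 relative to the 75th percentile. The difference was -0.81 ± 0.21, or 1.76-fold lower, and the overlapping probe A_51_P513719 gave -0.90 ± 0.21 from signals of 352 and 146. A difference as low or lower was seen in 804 of all genes (4.29%). The value stayed under 2-fold under all alternatives but one, the spike-in controls, which made it -1.07. Cdkn2d, which encodes p19INK4d, had a single probe (A_55_P2022251, chr9:21092934-21092993, reverse strand) with signals of 902 ± 90.2 and 549 ± 55.0. Its difference of -0.34 ± 0.20 was within 2 errors of 0, but became -0.60 with the spike-in controls.

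The CIP/KIP genes differed by less than 2 of their errors, although Cdkn1a stayed below 0 under all 11 alternatives (-0.59 to -0.16). Cdkn1a, a main transcriptional target of p53, had signals of 350 ± 35.2 (young) and 215 ± 21.8 (aged) by A_51_P363947 (chr17:29237377-29237436), and a difference of -0.33 ± 0.21, or 1.26-fold lower. Its other 2 probes, one of them placed on the transcript variant NM_001111099 alone, were well above background on neither array. Cdkn1b, which encodes p27 and is high in many resting cells, had signals of 575 ± 57.6 and 424 ± 42.5 by A_55_P2026562 (chr6:134875424-134875483), and a difference of -0.07 ± 0.20, whose sign changed with median centring (0.11). The other Cdkn1b probe was well above background on neither array. Of the inhibitors measured on both arrays, none reached 2-fold on the higher side under any of the 11 alternatives. Cdkn2a was not measurable and is not covered by this. In this bulk RNA, fewer cells that express a gene and less RNA of it per cell cannot be told apart.

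**Figure D2:**
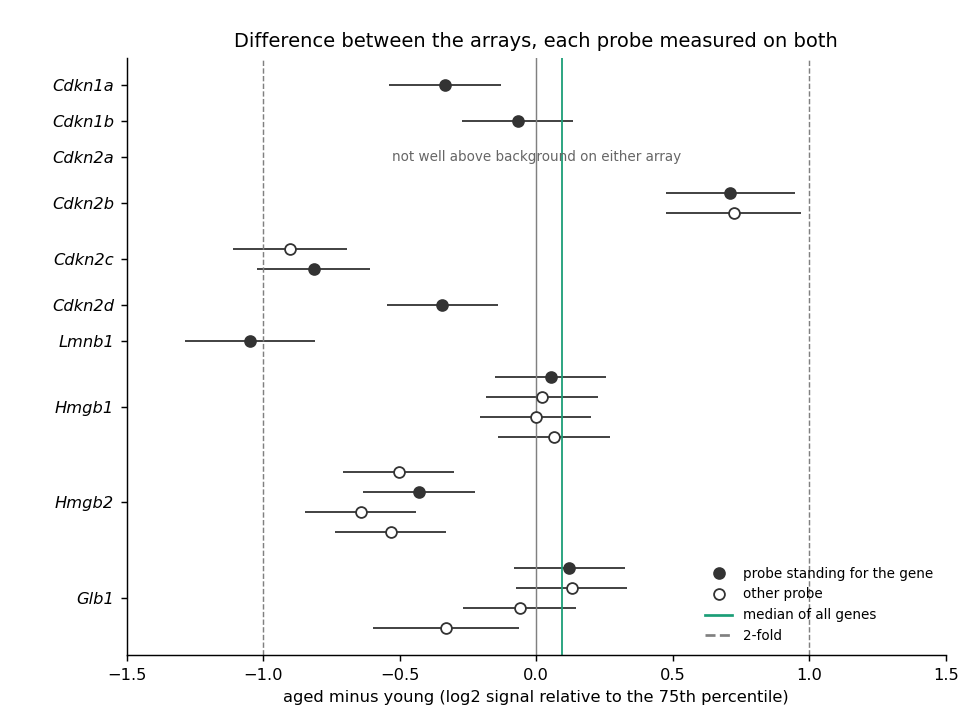
Difference between the arrays (aged minus young, log2 signal relative to the 75th percentile) of the 20 probes measured on both, with 1 SD of the error model on each side. Lmnb1 is the only gene beyond the dashed line of 2-fold, both Cdkn2b probes lie on the higher side at 0.71 and 0.72, and the 4 Hmgb2 probes lie together between -0.64 and -0.43 while the 4 Hmgb1 probes lie between -0.002 and 0.06.

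Lmnb1 encodes lamin B1, a filament protein of the inner nuclear membrane, and was the gene of the set with the largest difference. Its single probe (A_51_P120717, chromosome 18, 56912871 to 56912930, forward strand) had a signal of 94.3 ± 9.84 (young) and 35.3 ± 4.51 (aged), or -1.44 and -2.49 relative to the 75th percentile. The difference was -1.05 ± 0.24, 2.07-fold lower, so that the 2-fold line lay within its error. Of all genes measured on both arrays, 523 (2.79%) had a difference as low or lower. Among the 5063 genes with a mean log2 signal within 1 of its own, 320 (6.32%) were lower by 2-fold or more. The difference was under 2-fold with median centring (-0.87), with quantile normalization (-0.94) and with normexp (-0.51), and reached -1.31 with the spike-in controls.

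Other genes of the nuclear lamina and envelope did not share this value. All 16 genes of that list were measured on both arrays, 0 were at least 2-fold higher or lower, and their median difference was 0.08 against 0.09 over all genes. Lmna, which encodes lamins A and C, differed by 0.14, and Lmnb2, the other B-type lamin gene, by 0.23. The list's largest differences were those of Emd (emerin) at 0.46 and of Zmpste24, the protease that matures lamin A, at 0.45. Lmna and Lmnb2 were named after their values were seen.

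Hmgb1 and Hmgb2 encode related proteins that bend DNA in chromatin, and their differences were 0.05 and -0.43. All 4 Hmgb2 probes were lower on the aged array. A_51_P499940, which stood for the gene, had signals of 951 ± 95.2 (young) and 546 ± 54.7 (aged) and a difference of -0.43 ± 0.20, or 1.35-fold lower. The other 3 gave -0.50, -0.53 and -0.64, and the probe printed above is the one at -0.53, from signals of 556 and 297. Over the 4 probes the mean was -0.53 with an SD of 0.09, a spread over stretches of one transcript in the same RNA and not over samples. Hmgb1 had signals of 2665 ± 267 and 2137 ± 214 by A_55_P2025153, and a difference of 0.05 ± 0.20. Its 4 probes lay between -0.002 and 0.06. The probes A_55_P2025153 and A_55_P2082986 also matched transcripts of Gm5176 and Hmgb1-rs17, respectively, whereas A_55_P2131483, which matched Hmgb1 alone, gave 0.06. The sign for Hmgb1 changed under 5 of the 11 alternatives, down to -0.24 with loess and up to 0.23 with median centring, while Hmgb2 lay between -0.69 and -0.25 under all of them.

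Of the 10 other genes of high mobility group proteins and HMGB1 receptors, 8 were measured on both arrays and 0 passed 2-fold in either direction. Their median difference was -0.09. Hmgb3, the third HMGB gene, differed by -0.47 with a second probe at -0.30, and Ager, which encodes the receptor RAGE, by 0.42 with its other probes down to -0.25. Hmgb4 and Hmga2 were well above background on neither array.

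Promoters were searched for 2 motifs of cell cycle genes. In the 250 bases before the RefSeq start site (GRCm38.p6), Hmgb2 holds CCAAT, the box bound by NF-Y, in 4 places, all on the forward strand. With both strands counted, at least 4 were held by 276 of 32851 promoter windows of that length (0.84%). The window is shown, from chr8:57511593-57511842 on the forward strand, with each CCAAT in capitals.
Hmgb2 promoter: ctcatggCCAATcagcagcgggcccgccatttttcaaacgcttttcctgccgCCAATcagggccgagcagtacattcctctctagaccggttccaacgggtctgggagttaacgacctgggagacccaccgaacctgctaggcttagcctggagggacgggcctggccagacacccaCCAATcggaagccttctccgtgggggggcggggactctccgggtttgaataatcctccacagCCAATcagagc
The set had 13 windows from 9 of its genes, with none for Lmnb1, whose promoter was therefore not searched. One of the Hmgb1 windows held 3 on either strand, and at least 1 was in 4 of the 13 windows (1 each of Hmgb1, Hmgb2, Cdkn1b and Cdkn2d) and in 33.8% of all windows. The E2F spellings TTTCCCGC, TTTGGCGC, TTTGCCGC and TTTCGCGC, searched on both strands, were found in 1.86% of all windows and in 1 of the 13, one of the 2 windows of Cdkn2a. A match describes these letters and is no evidence of binding.

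Glb1 encodes the lysosomal beta-galactosidase. Its brightest probe (A_51_P327559, chr9:114383440-114383499) had signals of 1148 ± 115 (young) and 965 ± 96.5 (aged), and a difference of 0.12 ± 0.20. An overlapping probe (A_55_P2905209, chr9:114383406-114383466) gave 0.13 and is in part a repeat of the same measurement. A probe at chr9:114373365-114373424 gave -0.06, and the dimmest of the 4 measured probes gave -0.33 ± 0.27 from signals of 52.0 and 32.0. The other 2 probes were well above background on neither array. The sign for Glb1 changed under 3 of the 11 alternatives, with a range from -0.14 to 0.30. Of 20 lysosomal glycosidases and partners of Glb1, 19 were measured on both arrays with 0 past 2-fold and a median of -0.08 against 0.09 over all genes. Tfeb, a transcription factor for lysosomal genes that was named after its value was seen, had 0.81 by its brightest probe and down to -0.32 by others. Glb1l3, a galactosidase relative, was measured on the young array only, so that its aged level was at least 4.46-fold lower. Of the 2116 genes measured on the young array only, 527 (24.9%) were past 2-fold by such a limit, which sets the higher of the probe's aged value and the lowest aged signal well above background against the young value.

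**Figure D3:**
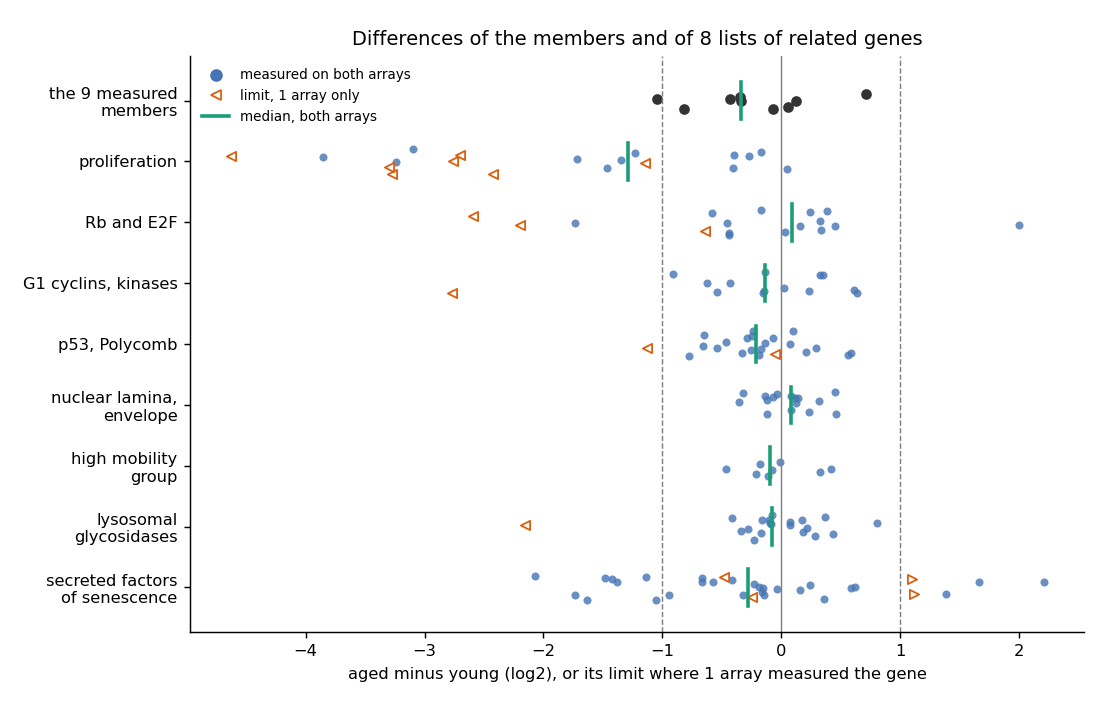
Differences (aged minus young, log2) of the 9 measured members and of 8 lists of related genes, with a point for each gene measured on both arrays, a triangle for the limit of a gene measured on 1 array, and a green bar at the median of the genes measured on both. The proliferation genes reach furthest to the left, with a median of -1.29, while the lamina, high mobility group and lysosomal lists sit within 2-fold of 0 apart from Glb1l3.

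Proliferation genes, many of which are E2F targets, were lower on the aged array, most of them by more than any gene of the set. Of 20 proliferation genes, 12 were measured on both arrays. By 2-fold or more, 7 of the 12 were lower, 7 more were lower by limit, 0 were higher and Bub1 was not measured on either array. Of all genes measured on both arrays, 3.05% were lower by 2-fold or more. Of all genes measured on the young array only, 24.9% passed 2-fold by limit. The median of the 12 was -1.29. Mki67, which encodes the proliferation antigen Ki-67, had 0.84 on the young array and was not well above background on the aged array, a limit of at least 24.8-fold lower. Birc5 (survivin, which acts in cell division) differed by -3.86 ± 0.27, Cdc20, an activator of the anaphase-promoting complex, by -3.24 ± 0.24 with its second probe at -1.72. By limit, Plk1, a mitotic kinase, was at least 9.83-fold lower and Ccna2 (cyclin A2) at least 9.68-fold lower. Pcna, the sliding clamp of DNA replication, was named after its value was seen as the only one of the 12 above 0, at 0.05. Over the alternatives that filter dim probes, the count lower on both arrays lay between 5 (normexp) and 8 (mean over probes). Without a filter, 15 genes were lower, with all values taken as they stand, dim ones included. The count lower by limit lay between 5 and 7 over the 9 alternatives that gave limits. Over all 11 alternatives, the median lay between -2.21 (no filter) and -0.88.

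The Rb and E2F genes went both ways, with a median of 0.09 over the 14 measured on both arrays. E2f1, an activating E2F, differed by -1.73 ± 0.31 to an aged level of -3.28, and E2f2 was at least 6.05-fold lower and Rbl1 (p107) at least 4.60-fold, both by limit. E2f7, a repressing E2F, was 4-fold higher by its 1 measured probe, from -1.79 to 0.21. Among 16 G1 cyclins, kinases and their partners, 13 were measured on both arrays with 0 past 2-fold. Cdkn3, which encodes a phosphatase acting on CDKs and is no inhibitor of the families above, was at least 6.81-fold lower by limit. Of 22 p53 and Polycomb genes that act on the Cdkn loci, 20 were measured on both arrays with 0 past 2-fold and a median of -0.21, and Tbx2, a repressor of Cdkn2a, was at least 2.18-fold lower by limit.

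Among 40 secreted factors that senescent cells commonly release, 28 were measured on both arrays. Of these, 3 were higher and 8 lower past 2-fold, and the median was -0.28. Over all genes measured on both arrays, 1.52% were higher and 3.05% lower, with a median of 0.09. Gdf15, a stress-induced cytokine, was 4.62-fold higher, from 0.10 to 2.31. The chemokine gene Cxcl1 was 3.18-fold and Ccl8 2.61-fold higher, while Igfbp2 was 4.20-fold, Ccl5 3.32-fold and Ccl2 3.11-fold lower. By limit, the matrix proteases Mmp3 (at least 2.17-fold) and Mmp10 (at least 2.15-fold) were higher. Genes with a measured value on the aged array alone numbered 485, and the limit of 255 of them (52.6%) passed 2-fold. The other genes among the 8 lower ones were Igfbp5 (-1.48), Tnf (-1.42, with a second probe at -0.42), Cxcl2 (-1.38), Il1b (-1.13) and Plaur (-1.05). Igfbp5, Tnf, Cxcl2, Il1b, Plaur, Ccl8, Mmp3 and Mmp10 were named after their values were seen. The limits of both proteases fell under 2-fold with normexp and with the spike-in controls.

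The general epithelial markers that both arrays measured differed by less than 2-fold, whereas most markers of leukocytes and macrophages and several of fibroblasts were lower on the aged array. Of 6 epithelial markers, 5 were measured on both arrays with 0 past 2-fold, Epcam differed by 0.20, Krt19, measured on the young array alone, was at least 1.85-fold lower, and the summed level of the list (in multiples of the 75th percentile) was 502 (young) and 561 (aged). Of 4 markers of all leukocytes, 3 (Cd52, Coro1a and Laptm5) were at least 2-fold lower, with a summed level of 19.6 against 9.13. Of 7 macrophage and dendritic cell markers, 5 (Adgre1, Cd68, Itgax, Lyz2 and Mrc1) were lower, with 140 against 51.9, although a second Itgax probe gave 0.42. Of 6 fibroblast markers, 3 (Col1a1, Col1a2 and Col3a1) were lower and Pdgfra lower by limit, with 18.6 against 8.70. All markers of these 3 lists were well above background on the young array. Of the duct, endothelial and red cell markers, 0 were past 2-fold by their brightest probes. The duct marker Elf5 had -0.09 by that probe, but a limit of -3.43 by a probe measured on the young array only. By the brightest probes, Smgc (acinar), Cnn1 (myoepithelial) and Cd79b (B cell) were each the only marker of their lists past 2-fold on both arrays. All 3 were lower. The myoepithelial marker Acta2 had -0.08 by its brightest probe, but -1.96 by its second probe measured on both arrays. A further Acta2 probe, well above background at the young age alone, gave a limit of -2.11. Among T cell markers, Cd3g was lower by limit, but the 3 measured on both arrays were above 0 (Cd3e 0.56, Cd3d 0.62 and Cd4 0.05). The summed level of the T cell list was 10.4 (young) and 12.4 (aged). The part of other cells in the lower values of Lmnb1, Cdkn2c, Hmgb2 and the proliferation genes was not tested.

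**Figure D4:**
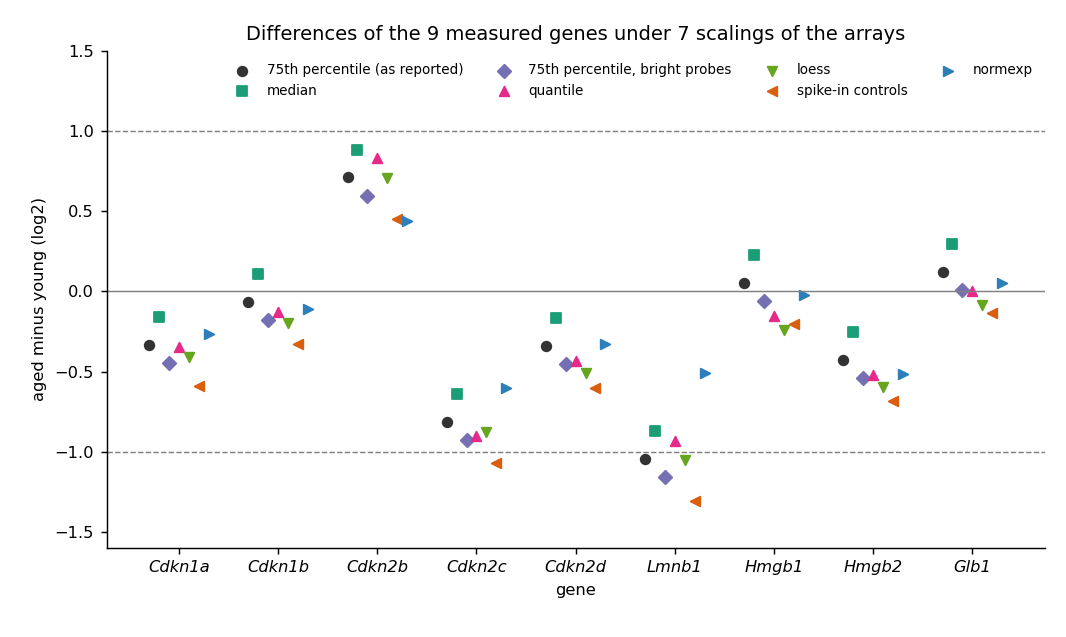
Difference (aged minus young, log2) of each of the 9 measured genes under 7 scalings of the arrays, with dashed lines at 2-fold. Cdkn2b stays above 0 and Cdkn1a, Cdkn2c, Cdkn2d, Lmnb1 and Hmgb2 stay below 0 throughout, whereas Cdkn1b, Hmgb1 and Glb1 lie on both sides.

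Part of each difference depends on where the arrays are set level. The 75th percentile placed the median of all genes at 0.09, median centring moved it by 0.17 and the spike-in controls by -0.26. Relative to that median, Lmnb1 was at -1.14 and Cdkn2c at -0.91 under all 3 of these scalings, which move all genes alike, and the normexp correction made them -0.61 and -0.70. Of all genes past 2-fold on both arrays, 33.2% were higher with the 75th percentile, 52.7% with median centring and 13.8% with the spike-in controls.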

How the data were processed

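Per the file headers, the deposited intensity of each spot is the processed signal of Feature Extraction 12.0.3.1, after background subtraction and removal of trends across the array, with a substitute value where no signal was measured. The authors also deposited a GeneSpring table, in which each intensity is a ratio to 1 constant per array. Here, each intensity was divided by the 75th percentile of the 59305 non-control spots of its array and put on the log2 scale. Spots marked as outliers were dropped, probes had to be well above background on either array, and the brightest stood for its gene. The members and lists were chosen with earlier results of these data known. Named genes are all members, up to 5 genes of a list past 2-fold with the largest differences, and otherwise the 2 with the largest. Names came from the files, updated through RefSeq accessions (GRCm38.p6, 33767 of 56605 probes). Precision is limited by the number of arrays. The alternatives were 6 other scalings or background corrections, the authors' table, 2 filters on dim probes, outlier spots kept and the mean over probes. Of the marker lists and probe sequences examined, 1 further marker gene and 1 further sequence are not reported here. Steps were tested on simulated data. R 4.3.3 with limma 3.58.1, Python 3.11.15, numpy 2.4.6, pandas 2.3.3 and matplotlib 3.10.9 were used.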

Additional observations from a re-analysis of the deposited data

How the results depend on the processing

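The number of members at least 2-fold lower on both arrays was 1 with the 75th percentile, 0 after median centring of the arrays, 0 with quantile normalization, 0 with normexp and 2 with the arrays set level on 280 spike-in control spots. The median difference of the members was -0.33 and became -0.59 with the spike-in controls, lying between -0.59 and -0.16 over all 11 alternatives. The number at least 2-fold higher was 0 throughout, as were the counts by limit wherever limits could be computed, which was not possible with the filter on both arrays or without a filter. The processed table of the authors moved no member by more than its error. Settings for the lists were added after the data were seen. No paired analysis was possible because each age had 1 array. Signal over background limits Cdkn2a, whose level under the lowest signal well above background is not known, and Cdkn1a, Cdkn1b, Cdkn2d and Lmnb1 rest on 1 measured probe each.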
